A study of Arabidopsis thaliana with 6 samples.

Results

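The UDP-glycosyltransferases (UGTs) of Arabidopsis are described here by the 46 probe sets of the GeneChip Arabidopsis ATH1 array whose annotation names a single gene with a symbol made of UGT and a number. They are 46 of 22746 probe sets tested, 1 for each of 46 protein-coding genes, out of 13356 genes that a probe set names alone, and they belong to 11 families numbered between 71 and 88. The rule itself uses annotation and no measured value. The seedlings were 10 days old and of the ecotype Col-0, either wild type (WT) or carrying human p53 behind the constitutive 35S promoter, with 3 arrays for each genotype from 3 independent experiments. The sources used here do not say how many transgenic lines went into the p53 arrays. No probe set was annotated to the human transgene, so its level was not checked.

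UGTs transfer a sugar from a UDP-sugar to a small acceptor molecule, usually at a hydroxyl, carboxyl or thiol group. In plants the acceptors include hormones, phenolic acids, flavonoids, sterols and foreign compounds, and the sugar commonly makes the acceptor more soluble, less active or ready for storage in the vacuole. The family number and letter follow sequence likeness, so members with the same number and letter are close relatives. Several subfamilies lie in the genome as runs of neighbouring copies.

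Each value below is the deposited log expression, centred so that every probe set has a median of 0 across the arrays, so it gives a difference between arrays and not a level. The logs were taken as base 2, which the sources used here do not state, and every fold depends on that reading. When the genotypes do not overlap, the centring places the closest WT and p53 arrays at the same distance on either side of 0. A fold change is p53 minus WT on the log2 scale, tested with limma, whose moderated test uses the spread of the whole array. Benjamini-Hochberg adjustment covered all 22746 probe sets. A gene is called higher or lower at an adjusted p under 0.05. These are whole seedlings, so fewer cells of a type and less RNA in each cell cannot be told apart.

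Of the 46 UGT genes, 16 were called, 6 higher and 10 lower in p53-transgenic seedlings, and 30 were not. The called share was 34.8%, where 15.4% of all probe sets were called (6.55% higher and 8.84% lower), and 14.0% of those that name 1 gene. The changes had no common direction. The median log2 fold change of the UGT genes was -0.02, against -0.01 over all probe sets, while the median of its absolute size was 0.39 against 0.16. The arrays of the genotypes did not overlap for 23 of the 46 UGT genes and for 34.3% of all probe sets. At a change of more than 2-fold and a p from limma under 0.05 before adjustment, 5 UGT genes were higher and 4 lower (19.6%). Over all probe sets 5.88% passed, 3.14% higher and 2.73% lower. The study names a t test for this threshold, and with an ordinary equal-variance t-test in place of limma 7 UGT genes passed, 3 higher and 4 lower, against 5.1% of all probe sets, UGT73D1 and UGT76E12 being lost. With that t-test and Benjamini-Hochberg adjustment, 5 UGT genes were called (1 higher, 4 lower), against 6.2% of all probe sets. The count of 16 also depended on single arrays. Leaving out WT replicate 1 gave 8 called UGT genes, leaving out WT replicate 3 gave 7 and leaving out p53 replicate 1 gave 7, and the share of all probe sets called dropped as well, to 7.68%, 7.13% and 7.52%.

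**Figure D1:**
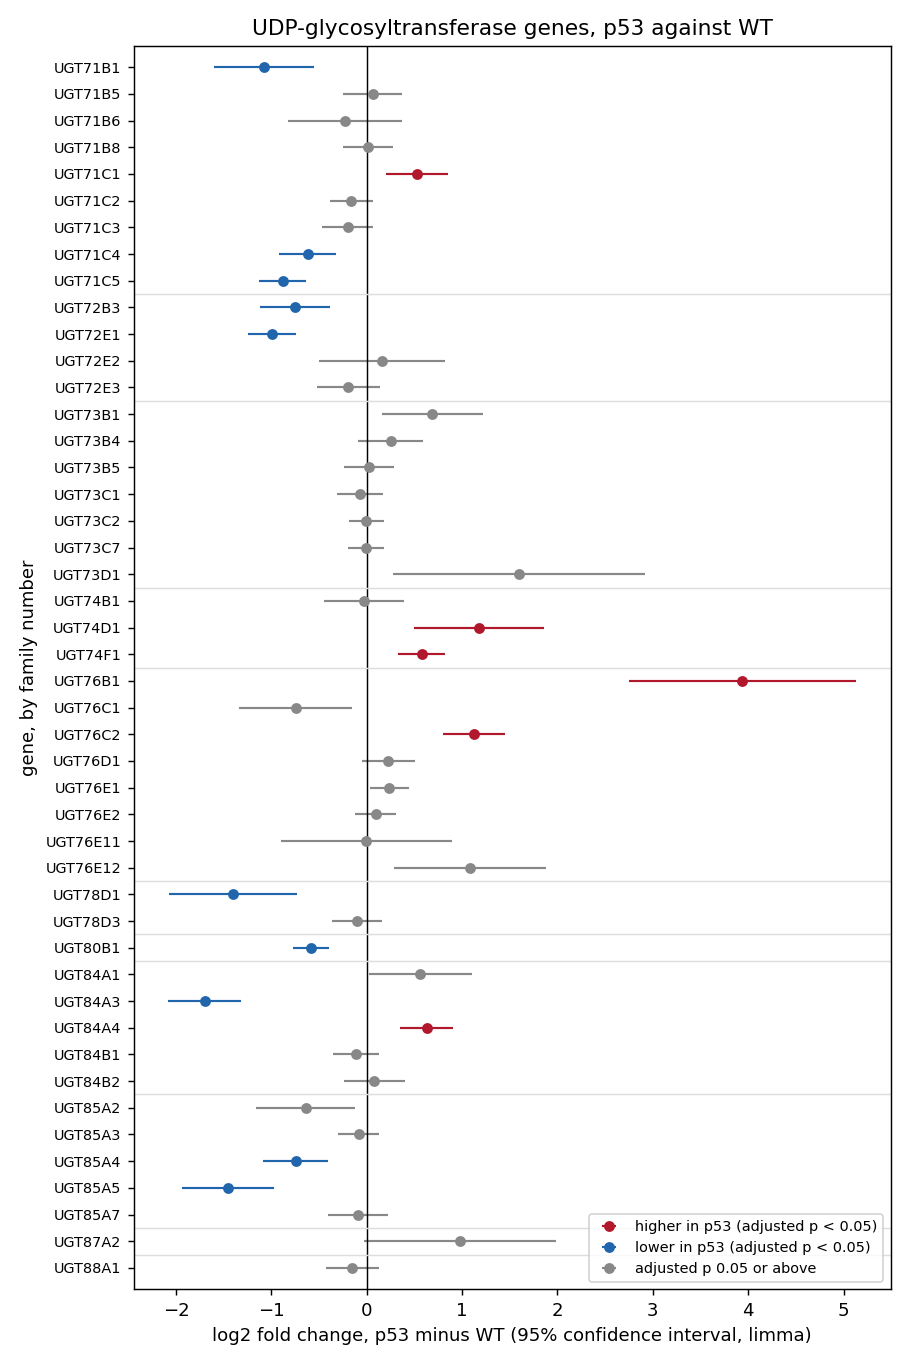
Log2 fold change (p53 minus WT, horizontal axis) of the 46 UGT genes, ordered by family number, with bars for the 95% confidence interval from limma. Red marks the 6 genes called higher, blue the 10 called lower and grey the 30 not called, and UGT76B1 stands farthest from 0 at 3.94.

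Acceptor classes below follow short lists of genes that need not hold every gene of a class. Activities outside those lists were not considered, and the coverage counts refer to the listed genes only. Members covered 3 of 6 genes listed for salicylic acid and other benzoates, 3 of 6 for auxins and 2 of 3 for cytokinins. They covered 3 of 4 for abscisic acid, 6 of 6 for hydroxycinnamic acids and monolignols, and 0 of 2 for brassinosteroids. They covered 2 of 6 for flavonols and anthocyanins, 3 of 5 for xenobiotics, and 1 of 2 each for sterols and for glucosinolate synthesis. UGT76B1, which glucosylates salicylic acid, isoleucic acid and N-hydroxypipecolic acid and thereby tunes immune signalling, had the largest change of the family. Its values were -1.60, -1.18 and -1.71 in the WT arrays and 2.99, 1.18 and 3.15 in the p53 arrays. All p53 arrays lay above all WT arrays, and p53 replicate 2 was the nearest to WT. The log2 fold change was 3.94 (standard error 0.50, adjusted p = 0.00358), or 15.4-fold. Both other members listed for benzoates had positive fold changes as well. UGT74F1, a salicylic acid glucosyltransferase, rose by 0.58 (adjusted p = 0.0128), with the WT arrays between -0.25 and -0.19 and the p53 arrays between 0.19 and 0.52. UGT76D1, a glucosyltransferase of dihydroxybenzoic acids, had 0.23 (adjusted p = 0.261). Its WT arrays lay close together, from -0.03 to -0.01, and its p53 arrays ran more widely, from 0.01 to 0.43.

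Of 3 members listed for auxin and 2 listed for cytokinin, 1 of each rose and the others did not pass. Over all probe sets 6.55% were called higher and 8.84% lower. UGT74D1, which glucosylates auxins, had -0.69, -0.17 and -0.59 in WT and 0.61, 1.30 and 0.17 in p53. The genotypes did not overlap, and p53 replicate 3 and WT replicate 2 lay closest to each other. UGT74D1 rose by 1.18 (standard error 0.29, adjusted p = 0.0366). UGT84B1, which makes the glucose ester of indole-3-acetic acid, and its neighbour UGT84B2 had -0.11 and 0.08, with 95% confidence intervals of -0.35 to 0.13 and -0.24 to 0.40. For the cytokinin N-glucosyltransferases, UGT76C2 had -0.61, -0.35 and -0.61 in WT and 0.73, 0.71 and 0.35 in p53. It rose by 1.13 (standard error 0.14, adjusted p = 0.00288). UGT76C1, the gene next to it on chromosome 5, had 0.32, 0.36 and 0.02 in WT and -0.46, -0.02 and -1.05 in p53. All its p53 arrays lay below all WT arrays, and its log2 fold change of -0.75 did not pass (standard error 0.25, adjusted p = 0.0974). UGT76C1 passed with the replicate number as a block (adjusted p = 0.0304), with array weights (0.0482) and without p53 replicate 2 (0.0169). Over 13 alternatives its adjusted p ran from 0.0169 to 0.252. Leaving out p53 replicate 3 reduced the fold change to -0.48 (adjusted p = 0.107).

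Of 3 members listed for abscisic acid, 1 fell, where 8.84% of all probe sets were called lower. UGT71C5, which makes the glucose ester of abscisic acid, had 0.38, 0.37 and 0.43 in WT and -0.42, -0.37 and -0.68 in p53. The 3 WT arrays lay close together and every p53 array lay below them. The log2 fold change was -0.88 (standard error 0.10, adjusted p = 0.00273). UGT71B6 and UGT71B8, also abscisic acid glucosyltransferases, had -0.23 (adjusted p = 0.632) and 0.01 (adjusted p = 0.963), and in both the genotypes overlapped. The 95% confidence interval of UGT71B6 ran from -0.82 to 0.37.

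Hydroxycinnamic acids and monolignols are the building blocks of sinapate esters and lignin. Among 6 members listed for them, 1 was higher, 2 were lower and 3 were not called. Over all probe sets 6.55% were higher and 8.84% lower. UGT84A3, which forms glucose esters of hydroxycinnamic acids, had 0.74, 0.72 and 0.73 in WT and -1.34, -0.72 and -0.86 in p53. Its WT arrays were nearly equal, with a standard deviation of 0.01 against 0.33 in p53. Its log2 fold change was -1.70 (standard error 0.16, adjusted p = 0.00117), the smallest adjusted p among the 46 genes. Its neighbour UGT84A4, of the same activity, moved the other way. It had -0.38, -0.22 and -0.20 in WT and 0.31, 0.20 and 0.57 in p53, and it rose by 0.63 (standard error 0.12, adjusted p = 0.0149). UGT84A1, the gene on the other side of UGT84A3, had 0.99 in p53 replicate 1, 0.21 and 0.08 in the other p53 arrays and -0.18 to -0.08 in WT. The arrays did not overlap, and the fold change of 0.56 did not pass (adjusted p = 0.159). Leaving out p53 replicate 1 gave 0.28 (adjusted p = 0.173), and with array weights it passed (0.76, adjusted p = 0.0388, range over 13 alternatives 0.0388 to 0.33). UGT72E1, which acts on the aldehydes of the monolignol pathway, had 0.60, 0.36 and 0.50 in WT and -0.60, -0.36 and -0.56 in p53. It fell by 0.99 (standard error 0.11, adjusted p = 0.0019). UGT72E2 and UGT72E3, which act on the monolignol alcohols, had 0.16 and -0.20 (adjusted p = 0.774 and 0.425). UGT72E2 was -0.54 in p53 replicate 2 and 0.32 and 0.63 in the other p53 arrays, and leaving out p53 replicate 2 gave a fold change that passed (0.50, adjusted p = 0.0333, range over 13 alternatives 0.0333 to 0.943).

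UGT78D1, the flavonol 3-O-rhamnosyltransferase, fell by 1.40 (standard error 0.28, adjusted p = 0.0192). It had 1.2, 0.35 and 0.61 in WT and -0.53, -0.35 and -1.18 in p53, so the spread within each genotype was wide, with a standard deviation of 0.44 in both, and the closest arrays were those with replicate number 2. UGT78D3, a flavonol arabinosyltransferase, had -0.10 (adjusted p = 0.619). UGT80B1, a glucosyltransferase of sterols, had 0.25, 0.25 and 0.37 in WT and -0.25, -0.31 and -0.33 in p53. It fell by 0.58 (standard error 0.08, adjusted p = 0.00471) with little spread in either genotype. UGT74B1, the thiohydroximate glucosyltransferase of glucosinolate synthesis, had -0.03 (95% confidence interval -0.45 to 0.39).

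The remaining called members have no acceptor assigned here. UGT85A5 had 0.57, 0.56 and 0.48 in WT and -0.94, -0.48 and -1.34 in p53. It fell by 1.46 (standard error 0.20, adjusted p = 0.00487), and p53 replicate 3 was the farthest from WT. UGT71B1 fell by 1.07 (standard error 0.22, adjusted p = 0.0207), from 0.39, 0.34 and 0.38 in WT to -0.53, -0.34 and -1.24 in p53. UGT72B3 fell by 0.75 (adjusted p = 0.0203), with 0.73, 0.21 and 0.30 in WT and -0.21, -0.47 and -0.35 in p53. Its WT replicate 1 stood above the other WT arrays. UGT85A4 fell by 0.74 (adjusted p = 0.0164), from 0.20, 0.21 and 0.40 in WT to -0.51, -0.20 and -0.72 in p53. UGT71C4 fell by 0.62 (adjusted p = 0.0195), and UGT71C1 rose by 0.53 with an adjusted p of 0.0463, close to the threshold.

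**Figure D2:**
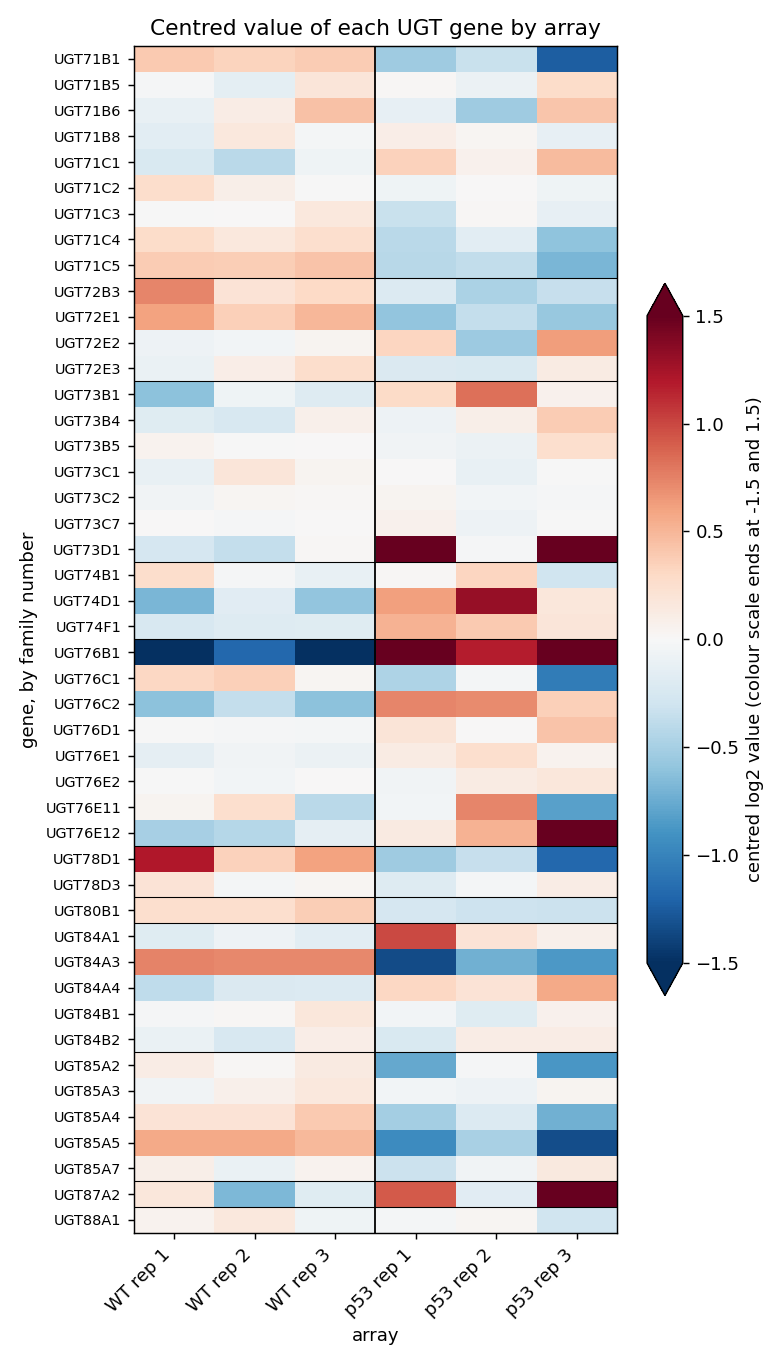
Centred log2 value of each of the 46 UGT genes (rows, by family number) in each of the 6 arrays (columns), with colour from blue (below the median of the probe set) to red (above it). UGT76B1 is low in all WT arrays and high in all p53 arrays, and UGT73D1 is high in p53 replicates 1 and 3 only, at 2.0 and 2.23.

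Families differed in how many of their members were called and in which direction, and none of these counts was tested against another. Over all probe sets 6.55% were called higher and 8.84% lower, and 52.4% had a negative fold change. In family 71, 1 of 9 members was higher and 3 were lower (median log2 fold change -0.20). In family 72, 2 of 4 were lower. In family 74, 2 of 3 were higher, and in family 76, 2 of 8 were higher and none was lower (median 0.23). In the single-subfamily UGT85A, the fold changes of all 5 members were negative, from -1.46 to -0.09, and 2 were called lower. Family 84 had 1 higher and 1 lower member of 5.

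None of the 7 members of family 73, which includes genes known for acting on foreign compounds, was called by limma or by the methods' t-test, while 2 of the 7 had an unadjusted p under 0.05 from limma, as had 29.2% of all probe sets. UGT73B4, UGT73B5 and UGT73C1, which glucosylate xenobiotics, had log2 fold changes of 0.25, 0.02 and -0.07 (adjusted p = 0.311, 0.938 and 0.708). Their 95% confidence intervals were -0.09 to 0.59, -0.24 to 0.28 and -0.31 to 0.17. UGT73D1 had -0.26, -0.35 and 0.02 in WT and 2.0, -0.02 and 2.23 in p53, so p53 replicate 2 lay within the WT range and the other p53 arrays far above it. Its log2 fold change was 1.60 (standard error 0.56, adjusted p = 0.107), and without p53 replicate 2 it was 2.31 (adjusted p = 0.000297, range over 13 alternatives 0.000297 to 0.297). With array weights it was 1.68 (adjusted p = 0.0352). UGT73B1 had -0.61, -0.07 and -0.20 in WT and 0.29, 0.82 and 0.07 in p53, with no overlap. Its log2 fold change was 0.69 (adjusted p = 0.0895). UGT73B1 passed with the replicate number as a block (adjusted p = 0.0409) and with array weights (adjusted p = 0.0499). It also passed without p53 replicate 3 (adjusted p = 0.0429, range 0.0409 to 0.25).

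In addition to UGT73D1, UGT73B1, UGT76C1 and UGT84A1, another 3 members that were not called had a log2 fold change of more than 0.5 in size. UGT76E12 had -0.49, -0.43 and -0.13 in WT and 0.13, 0.52 and 1.53 in p53. Its log2 fold change was 1.08 (adjusted p = 0.079). UGT76E12 passed with the replicate number as a block (adjusted p = 0.0273) and after quantile normalization (0.96, adjusted p = 0.0265). It also passed on leaving out p53 replicate 3 (0.68, adjusted p = 0.0351, range 0.0265 to 0.233). UGT87A2, known for a role in flowering time, had 0.17, -0.67 and -0.19 in WT and 0.92, -0.17 and 1.5 in p53. The genotypes overlapped at p53 replicate 2, without which its fold change passed (1.44, adjusted p = 0.0152, range 0.0152 to 0.408), while with all arrays it was 0.98 (adjusted p = 0.183) and without p53 replicate 3 it was 0.60 (adjusted p = 0.324). UGT85A2 had 0.11, 0.02 and 0.14 in WT and -0.77, -0.02 and -0.87 in p53, with no overlap and with p53 replicate 2 next to WT. Its log2 fold change of -0.64 (adjusted p = 0.103) became -0.91 without p53 replicate 2 (adjusted p = 0.00184, range 0.00184 to 0.288). With array weights it was -0.68 (adjusted p = 0.0348). The other 23 members had log2 fold changes between -0.23 and 0.25, with adjusted p from 0.119 to 0.995, and the whole 95% confidence interval lay within 2-fold for each of them. 

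Neighbouring UGT genes had fold changes of opposite sign about as often as neighbouring named genes over the whole array. In the order of protein-coding genes along the chromosomes, 29 of the 46 members fell into 12 runs with no more than 3 other genes between neighbours, which gave 17 pairs. In 1 pair both genes were called in the same direction, in 1 pair both were called in opposite directions, in 7 pairs 1 gene was called and in 8 pairs neither was. Over 10869 pairs of neighbouring named genes on the array, both were called in the same direction in 1.72%, in opposite directions in 0.957%, 1 of them in 25.3% and neither in 72.0%. The fold changes had opposite signs in 8 of the 17 UGT pairs and in 48.2% of all these pairs. The pair with the same direction was UGT71C5 and UGT71C4 on chromosome 1 (AT1G07240 and AT1G07250), while UGT71C3, next in that run, had -0.20 (adjusted p = 0.305). The pair with opposite directions was UGT84A3 and UGT84A4 on chromosome 4 (AT4G15490 and AT4G15500).

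To compare neighbours directly, the difference between the pair was taken within each array and then compared between the genotypes. For UGT84A4 minus UGT84A3 this difference ran from 0.92 to 1.65 in p53 and from -1.13 to -0.93 in WT, a change of 2.33 (standard error 0.23). For UGT84A3 minus UGT84A1 the difference ran from -2.33 (p53 replicate 1) to -0.93 in p53 and from 0.79 to 0.92 in WT, a change of -2.26 (standard error 0.47). UGT76C1 minus UGT76C2 changed by -1.87 (standard error 0.22). In the run of UGT85A genes on chromosome 1, UGT85A5 had a lower fold change than UGT85A2, with a change in UGT85A5 minus UGT85A2 of -0.81 (standard error 0.12). UGT85A3 minus UGT85A5 changed by 1.37 (standard error 0.29). UGT85A3 itself had -0.09 (adjusted p = 0.605) and UGT85A7, at the other end of the run, also -0.09 (adjusted p = 0.734). Within the UGT71C genes of chromosome 2, UGT71C1 minus UGT71C2 changed by 0.69 (standard error 0.20). In all, the within-array differences of the genotypes did not overlap in 9 of 17 pairs, where 39.2% of all neighbouring pairs on the array showed no overlap. Each of these 9 had p = 0.1 in a two-sided exact permutation test, the smallest that 3 against 3 arrays allow, and 0.189 after adjustment over the 17 pairs, so none could pass. Pairs of a run share members and are not independent. Probe sequences were not used here, so how far a probe set also binds RNA of a close relative was not tested.

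**Figure D3:**
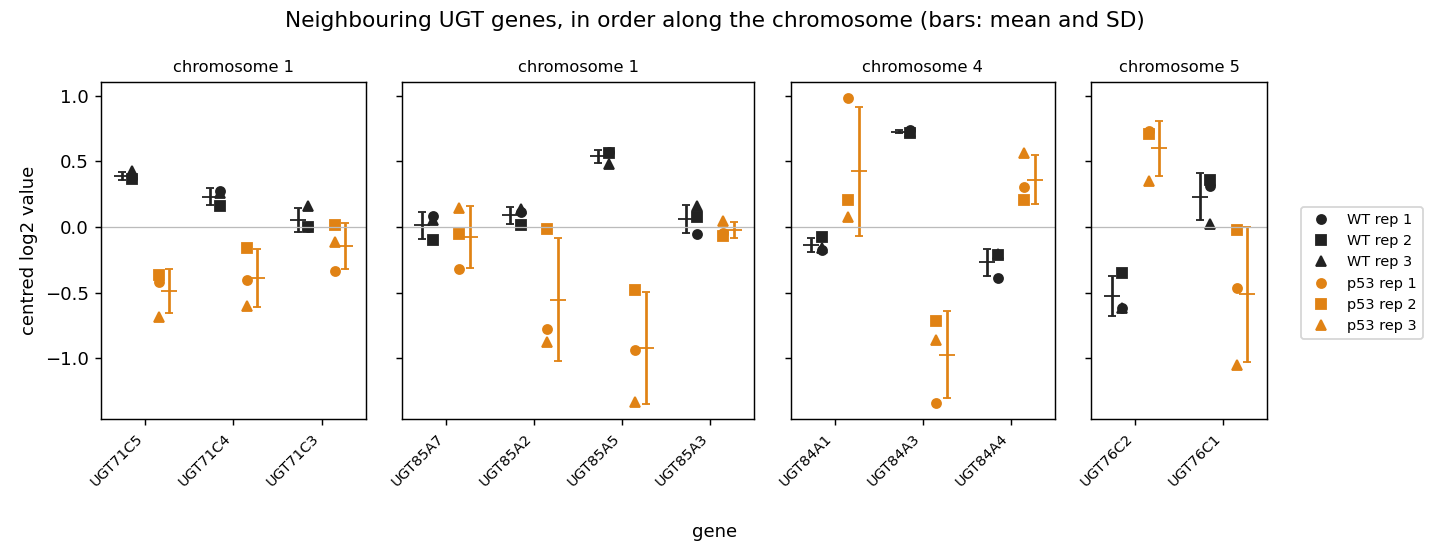
Centred log2 values of 4 runs of neighbouring UGT genes in order along the chromosome, with black for WT, orange for p53, 1 symbol for each replicate number, and bars for the mean and SD of 3 arrays. UGT84A3 is lower and both genes beside it are on average higher in p53. All p53 arrays lie above all WT arrays for UGT76C2 and below them for UGT76C1, which was not called.

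The p53 arrays differed among themselves more than the WT arrays did. The standard deviation was larger in p53 than in WT for 38 of 46 UGT genes (82.6%), and for 65.3% of all probe sets. Its median over the UGT genes was 0.21 in p53 and 0.12 in WT. Among the 16 called UGT genes, p53 replicate 2 was the least changed array for 11 (68.8%) and p53 replicate 3 the most changed for 10 (62.5%). Over all 3500 called probe sets these shares were 47.6% and 42.7%. The order was clearest among the genes that were lower, where p53 replicate 2 was the least changed for 8 of 10 and p53 replicate 3 for none. For the 6 genes that were higher, replicates 2 and 3 were each the least changed for 3. All called probe sets were not split by direction, so these orders have no array-wide share beside them. Without p53 replicate 2, 21 UGT genes were called, including all 16, and the share of all probe sets called was 19.1%.

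**Figure D4:**
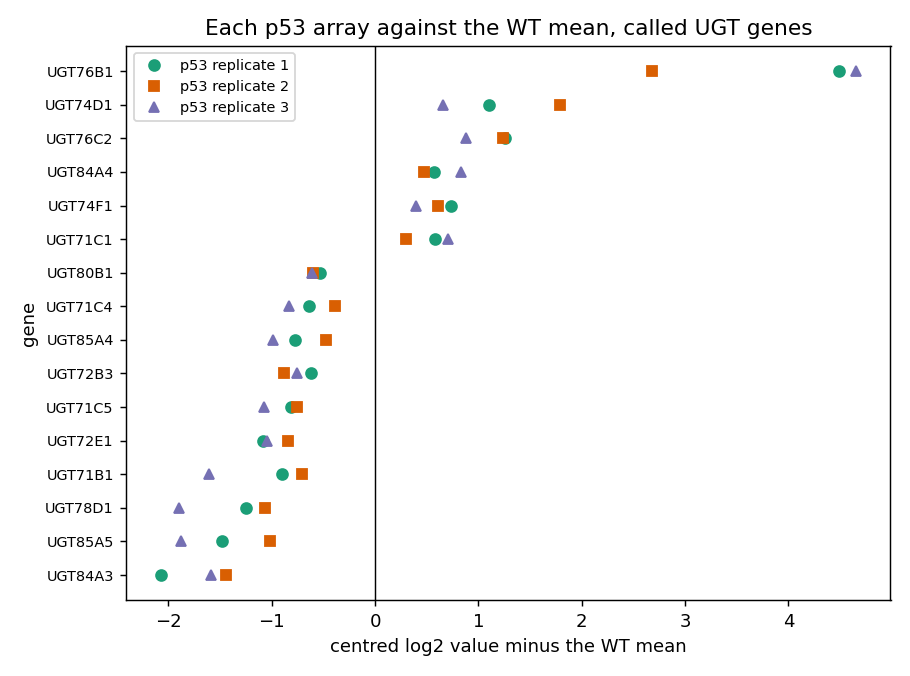
Value of each p53 array minus the WT mean (horizontal axis, centred log2 scale) for the 16 called UGT genes, with 1 symbol for each p53 replicate. Squares (replicate 2) lie nearest to 0 for 11 genes and triangles (replicate 3) farthest for 10.

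Single calls differed in how firmly they held. UGT71C5, UGT72E1, UGT76C2, UGT80B1 and UGT84A3 passed under all 13 alternatives, and UGT76B1 and UGT85A5 under all but the methods' t-test (adjusted p = 0.0547 and 0.0576). Each of the other 9 was lost without at least 2 single arrays and with the methods' t-test, and all 16 kept their direction throughout. UGT71C4, UGT74F1, UGT78D1, UGT84A4 and UGT85A4 were each lost on leaving out WT replicate 1, WT replicate 3 or p53 replicate 1, the highest adjusted p being 0.0819, 0.06, 0.0679, 0.0659 and 0.0751. UGT72B3 was lost without WT replicate 3 (0.0598) or p53 replicate 1 (0.0526). UGT71B1 and UGT74D1 were each lost on leaving out any single WT array or p53 replicate 1, the highest adjusted p being 0.0828 and 0.131. UGT71C1 was lost on leaving out any single array other than p53 replicate 2 (highest adjusted p 0.153).

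The lists of other genes of the pathway were only partly covered by named probe sets. Beta-glucosidases, many of which remove glucose from such conjugates, had 20 named probe sets, of which 1 was higher and 2 were lower (3 of 20 called, against 15.4% of all probe sets), with a median log2 fold change of 0.03. BGLU25 rose by 1.52 (adjusted p = 0.0424), and BGLU42 and BGLU47 fell by 0.46 and 0.61 (adjusted p = 0.0185 and 0.0269). BGLU44 had -0.84 (adjusted p = 0.0530). Of 34 symbols listed for the supply of UDP-sugars, only USP, the UDP-sugar pyrophosphorylase, could be named on the array, with 0.19 (adjusted p = 0.367). Markers of tissue and senescence could hardly be read, since 0 of 8 mesophyll, 1 of 8 root and 1 of 6 senescence markers were named. EXPA7, of root hairs, had -0.02 (adjusted p = 0.947) and the senescence marker SAG29 had 0.07 (adjusted p = 0.893). The part of tissue makeup in the UGT results was not tested.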

How the data were processed

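RNA of whole seedlings was measured on ATH1 GeneChips, after extraction with TRIzol per the labels and with an RNeasy kit per the methods. The deposited log2 values (base taken as 2) were summarized by the authors with PLIER, per the submitters' processing notes, and centred probe set by probe set on a median of 0 across the arrays. The sources used here do not state background correction or normalization between arrays, and detection could not be judged for single probe sets. The study's quality summary gives the share of probe sets present, background and noise for each array. It marks every array as outside bounds in its threshold test. Of 22810 probe sets, 64 controls were left out. The annotation names 1 gene for 13513 probe sets, several for 503 and none for 8730. Another 3 probe sets name a UGT among several genes and were not used. Another 4 name a gene that RefSeq (TAIR10.1, used for names and gene order only) lists as a UGT under another symbol, and they were not counted as members. Of these, UF3GT fell by 2.46 (adjusted p = 0.0271), more than any member. SGT, GT72B1 and AT5G54010 had 0.25, 0.12 and 0.09 and were not called (adjusted p = 0.153, 0.427 and 0.532). 1 gene of the family is not reported here.

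Genotypes were compared with limma 3.58.1 in R 4.3.3 (lmFit, eBayes, no covariate), and the steps were tested on simulated data. The methods' t-test is the t test named in the study, run on the same values with equal variances and Benjamini-Hochberg adjustment. Its count at the study's own threshold was added after seeing the data. Alternatives were the replicate block, quantile normalization, centring of each array, robust eBayes, array weights, probe sets of 1 named gene only and leaving out each array. Same-numbered WT and p53 arrays deviated together from their group means (r = 0.124, 0.271 and 0.337, all above 0.1, computed over probe sets), and the replicates are described as independent experiments, so the numbers were judged to pair the arrays, but the reported fit has no block, and the block was run as an alternative. Members and gene lists were chosen with earlier results of these data known. By rule, every called UGT and every UGT with an acceptor listed is named, with all 6 values for the 12 largest changes among called genes; members outside it with a log2 fold change over 0.5 in size, and neighbours of called genes, were named after their values were seen. The number of arrays limits the precision.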

Additional observations from a re-analysis of the deposited data

How the results depend on the processing

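The count of 16 called UGT genes (6 higher, 10 lower) stayed within 1.5 times under the replicate block (19, with 8 higher and 11 lower), quantile normalization (17), centring of each array, robust eBayes, probe sets of 1 named gene only (16 each) and array weights (21, where the weights stopped short of convergence). All 16 genes were among those called in each of these. With the methods' t-test, 5 were called (1 higher, 4 lower), against 6.2% of all probe sets. A threshold of 2-fold and p before adjustment gave 9 with limma (5 higher, 4 lower) and, chosen after seeing the data, 7 with the methods' t-test (3 higher, 4 lower). Without single arrays the count ran from 7 to 21, with 2 to 9 higher and 5 to 12 lower, and the median from -0.07 to -0.01. The causes were not tested, except that fewer arrays enter each of these fits. The median log2 fold change of -0.02 was 0.01 after quantile normalization, so it gives no direction. With the replicate block UGT73B1, UGT76C1 and UGT76E12 were called in addition, and it changed no other call of a member. No member that was called changed its sign. Centring removed the levels, so no alternative could filter on dim probe sets, and signal over background is unknown for each value.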
